A study of Caenorhabditis elegans with 24 samples.

Results

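C-type lectin genes of the clec family were followed across DamID libraries of Caenorhabditis elegans body wall muscle. Each gene named clec with a number in the ce11 annotation was given the 10 kb bin that holds its midpoint, and each bin was counted once. This placed 264 genes, of which 239 are protein-coding and 25 are pseudogenes, in 184 of the 10032 bins of the count table. Reads were present in 183 of these bins, which are 1.83% of the 9973 nuclear bins with counts. The bin of clec-209 had no read in any library and is not described further.

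C-type lectins carry a fold that in many animals binds sugars in a calcium-dependent way, and most of the worm proteins are secreted or sit in membranes. The family is greatly expanded in C. elegans, and several members are switched on in the intestine when worms meet pathogenic bacteria. In worm nuclei the ends of the autosomes, rich in repeats and in young gene families, lie against the nuclear envelope, held there partly by methylated histone H3 and its anchor CEC-4.

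DamID marks DNA through the bacterial methyltransferase Dam, whose methylated GATC sites are cut and sequenced. Dam-EMR, a fusion to the inner nuclear membrane protein emerin, marks DNA near the envelope, and GFP-Dam, which diffuses through the nucleus, marks accessible DNA. The 24 libraries hold both fusions in 4 strains and 3 replicates, which form 12 pairs of Dam-EMR and GFP-Dam. The study asks how a lamin mutation and the loss of CEC-4 change what touches the envelope.

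The strains were Y59C cec-4 (GFP-tagged lamin LMN-1 with the Y59C substitution, with the deletion allele ok3124 of cec-4), Y59C (the same lamin with an intact cec-4 gene), GFP::LMN-1 cec-4 (tagged lamin without the substitution, with ok3124) and GFP::LMN-1 (tagged lamin, intact cec-4). All of them expressed a GFP-tagged lamin, and the labels do not say how much untagged lamin was left. Each library came from many L3 and L4 larvae collected together, fed bacteria that lack Dam and grown for 26 h at 22.5 °C. Trace amounts of each fusion came from hsp-16.41, a heat shock promoter left without induction, in cells where a recombinase under the myo-3 promoter had acted. The myo-3 promoter is active in muscle, and the tissue label is body wall muscle, whereas the series text says intestine. In GFP-Dam libraries the 10 bins of body wall muscle marker genes had a median of 483 to 764 CPM (the reads of a bin scaled to the total of its library), above the median of all bins (21.2 to 39.6) in 12 of 12 libraries. The 10 bins of intestinal markers had 17.6 to 36.3 CPM and were above it in 1. Bins of neuronal markers (28.9 to 70.1) and hypodermal markers (40.6 to 73.8) were also above it in 12 of 12 libraries, at lower levels than muscle.

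Depth set the precision. Dam-EMR libraries held 34946 to 6163102 reads in nuclear bins and GFP-Dam libraries 2726612 to 19412314. The median clec bin held 1 to 220 reads in Dam-EMR libraries and 65 to 414 in GFP-Dam libraries. In Dam-EMR libraries 1.09% to 44.8% of clec bins were empty, against 0.772% to 42.2% of all bins. The shallowest library was Dam-EMR of Y59C replicate 3, so that ratios of that pair rest largely on the read added to each count. Next was Y59C cec-4 replicate 1, with 162869 reads and a median of 4 in clec bins. In shallow pairs a bin without a Dam-EMR read can have a ratio above 0, as the clec-247 bin did in Y59C replicate 3 (1.87). Counts of pairs above 0 for single bins include such cases.

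The clec genes lie mostly on the arms, here the outer 33% of an autosome at each end. Chromosome V holds 96 of the genes, IV 58, II 51, I 38, III 18 and X 3. Of the 184 bins, 149 (81.0%) were on arms, 32 in autosomal centres and 3 on X. By spacing, 163 genes belonged to clusters of 3 or more in 100 kb, 59 were single, with no other clec gene within 100 kb, and 42 were neither and are called pairs. In bins, 91 were clustered, 34 were pair bins and 59 were single, 58 of them with reads. A bin held at most 6 clec genes, and 17 bins held 3 or more. The bins also held 35 chemoreceptor and 6 F-box genes, so a value of a bin is not that of a clec gene alone.

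In GFP-Dam libraries the median clec bin had 13.8 to 28.6 CPM, and the median of all bins was 21.2 to 39.6. The clec value was the lower one in 12 of 12 libraries. On the arms alone the values were 12.2 to 26.0 for clec bins and 15.2 to 29.3 for all arm bins, again lower in 12 of 12. In Dam-EMR libraries the median clec bin had 11.2 to 45.6 CPM and the median of all bins 17.4 to 45.6, with the clec value lower in 6 of 12, equal in 3 and higher in 3. On the arms the Dam-EMR value of clec bins was lower in 4 of 12 libraries, equal in 1 and higher in 7. The clec bins therefore stood lower in the diffusing fusion in every library and without one direction in the emerin fusion.

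The association with emerin is given as the log2 of Dam-EMR over GFP-Dam, each library scaled to its total with 1 read added, and centred so that the median bin of each pair is 0. The median over clec bins was 0.43, 0.20 and 0.18 in the pairs of Y59C cec-4, replicates 1 to 3. It was 0.92, −0.02 and 0.35 in Y59C, 0.28, −0.27 and 0.43 in GFP::LMN-1 cec-4, and 0.03, 0.45 and 0.10 in GFP::LMN-1. Clec bins thus lay above the median bin in 10 of 12 pairs, on average by 0.26 ± 0.30 on the log2 scale (SD, n = 12 pairs). The mean over clec bins in place of the median was 0.07 ± 0.53 and above 0 in 6 of 12 pairs, and the median without centring was 0.14 ± 0.73 and above 0 in 7. The strains overlapped throughout, with means of 0.27 ± 0.14 in Y59C cec-4, 0.41 ± 0.47 in Y59C, 0.15 ± 0.37 in GFP::LMN-1 cec-4 and 0.19 ± 0.23 in GFP::LMN-1 (SD, n = 3 pairs each). By replicate, each the mean of 4 strains, the values were 0.42, 0.09 and 0.26. The lower GFP-Dam level of clec bins moves with this ratio, and its part in the excess was not tested.

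Pooled over the autosomes, clec bins on arms stood above those in centres. Clec bins on arms had a median ratio of 0.37 ± 0.33, above 0 in 11 of 12 pairs, and all arm bins had 0.13 ± 0.17. The difference was 0.24 ± 0.20 and was positive in 10 of 12 pairs. Clec bins in autosomal centres had −0.27 ± 0.25, above 0 in 1 of 12 pairs, and all centre bins had −0.14 ± 0.17. Within the family the arm median exceeded the centre median in 12 of 12 pairs, by 0.64 ± 0.38 (0.23 to 1.59). Over all bins the same step was 0.27 ± 0.33 and positive in 10 of 12 pairs. In centres the clec bins differed from all centre bins by −0.13 ± 0.31, positive in 5 of 12 pairs. This mean was smaller than the SD of single pairs and was not tested.

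Among the arms with more than 20 clec bins, the right arm of V (39 bins) had a median of 0.45 ± 0.79, against 0.22 ± 0.44 over all its bins. The left arm of II (24 bins) had 0.46 ± 0.54, against 0.19 ± 0.43, and the right arm of I (24 bins) had 0.37 ± 0.34, against 0.08 ± 0.14. The left arm of IV (22 bins) had 0.26 ± 0.91, against 0.08 ± 0.20. Both the right arm of I and the left arm of IV were positive in 11 of 12 pairs. The exception on IV was GFP::LMN-1 cec-4 replicate 2 (−2.38), and without that pair, left out after seeing the data, the clec value was 0.50 ± 0.40, against 0.11 ± 0.17 over all bins of the arm. Clec bins were above all bins of the same arm on 5 of the 10 arms and below them on 5. Those below were the right arm of IV (13 bins, −0.12 ± 1.16, against 0.29 ± 0.41), the right arm of II (10 bins, 0.01 against 0.13), the left arm of V (7 bins, 0.18 against 0.19), the left arm of I (3 bins, −0.10 against 0.01) and the right arm of III (3 bins, −0.07 against 0.05). In the middle of III (8 bins) the clec median was −0.37 ± 0.65 and above 0 in 2 of 12 pairs. It was −0.22 ± 0.59 (3 of 12) in the middle of V (14 bins) and −0.61 ± 1.14 (4 of 12) in that of II (3 bins). The middle of IV (6 bins) had 0.04 ± 0.46 (4 of 12), a mean above those of several arms, against −0.13 over all its bins.

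**Figure D1:**
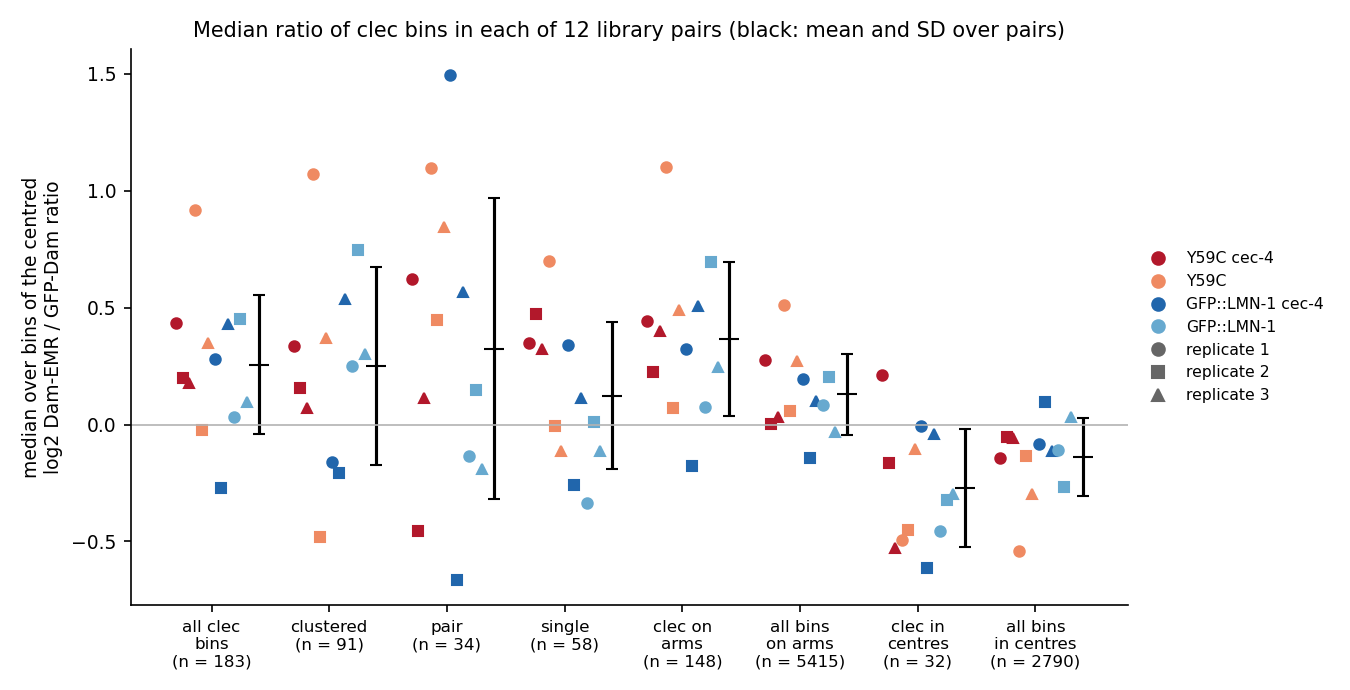
Median centred log2 ratio of Dam-EMR over GFP-Dam (vertical axis) for groups of clec bins and for all bins of arms and centres, 1 point for each of 12 library pairs, coloured by strain and shaped by replicate, with the mean and SD over pairs in black. The arm values of clec bins (mean 0.37) sit above their centre values (mean −0.27) in every pair, and the clustered (0.25) and single (0.12) groups overlap.

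Clustered and single bins overlapped. Clustered bins had a median of 0.25 ± 0.42 (above 0 in 9 of 12 pairs), pair bins 0.32 ± 0.64 (8 of 12) and single bins 0.12 ± 0.31 (7 of 12). The difference of clustered minus single bins was −0.01, −0.32 and −0.25 in Y59C cec-4, 0.38, −0.47 and 0.49 in Y59C, −0.50, 0.05 and 0.43 in GFP::LMN-1 cec-4, and 0.58, 0.74 and 0.41 in GFP::LMN-1. It averaged 0.13 ± 0.43 and was positive in 7 of 12 pairs, which is within the spread between pairs. The 3 GFP::LMN-1 pairs were all positive and the 3 Y59C cec-4 pairs all negative, a contrast that was not tested. On the arms alone, a version chosen after seeing the data, the difference was 0.05 ± 0.47 and again positive in 7 of 12 pairs. It was 0.42 ± 0.54 (9 of 12) with clusters set in windows of 200 kb, 0.28 ± 0.53 (7 of 12) over bins with 10 or more reads in every GFP-Dam library, 0.22 ± 0.45 (8 of 12) with 5 reads added, and 0.004 ± 0.52 (6 of 12) with an added count scaled to the library total. Each of these was smaller than its SD between pairs, as was the median of all clec bins (0.26 ± 0.30), and none was tested. The SD describes single pairs and not the precision of their mean.

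Bins with many clec genes and bins with 1 had similar medians on average over pairs, but not replicate by replicate, and the difference was not tested. The 17 bins with 3 or more clec genes had 0.24 ± 0.41 and the 132 bins with 1 clec gene had 0.26 ± 0.28. Replicate means were −0.10, 0.43 and 0.39 in the first group and 0.44, 0.13 and 0.21 in the second. The 11 bins whose clec genes are all pseudogenes had 0.75 ± 0.80, above 0 in 10 of 12 pairs, a wide spread for a small group. Bins around the clec genes also lay above the median bin. The 1031 bins without a clec gene in the same 122 windows of 100 kb had a median of 0.14 ± 0.21, and clec bins exceeded them by 0.12 ± 0.22, in 7 of 12 pairs.

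Single bins varied far more than the medians. The mean over 12 pairs was above 0 in 97 clec bins and below 0 in 86. The SD over pairs of the median clec bin was 1.89, and that of the median bin of the genome 1.64. A ratio above 0 in 10 or more of 12 pairs was seen in 11 clec bins (6.01%, against 4.65% of all bins). A ratio above 0 in 2 or fewer pairs was seen in 3 (1.64%, against 5.34% of all bins). No clec bin had the same sign in all 12 pairs, which 0.672% of all bins had. Across the 183 bins, profiles of 2 pairs from the same replicate number correlated at a median r of 0.093, those of the same strain at −0.0188 and all others at 0.0264. These are descriptions over bins, which share libraries and sequence.

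The fit across all bins tested Dam-EMR against GFP-Dam, averaged over the 4 strains, with edgeR's quasi-likelihood test. Of 179 clec bins tested, 3 were higher at a Benjamini-Hochberg adjusted p under 0.05 (1.68%), where 1.29% of all 9735 tested bins were. None was lower, where 1.8% of all bins were. The share of clec bins called higher was thus near that of the genome. At an unadjusted p under 0.05, 28 clec bins were higher (15.6%, against 8.01% of all bins) and 14 lower (7.82%, against 12.2%). The median log2 change was 0.28 for clec bins and −0.07 for all bins.

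The bin of clec-166, clec-167 and clec-168 lies on the left arm of IV at chrIV:1250001-1260000 and belongs to a cluster of 6. All of these genes are protein-coding. In replicate 1 Dam-EMR gave 190 CPM in Y59C cec-4, 322 in Y59C, 131 in GFP::LMN-1 cec-4 and 60.1 in GFP::LMN-1. In replicates 2 and 3 it gave 14.6 to 72.0. GFP-Dam ranged from 12.2 to 42.3 over the 12 libraries, with a median of 25.7. Replicate 1 was the highest Dam-EMR library in all 4 strains and lay above every GFP-Dam library, while replicates 2 and 3 overlapped with GFP-Dam. The ratio was above 0 in 10 of 12 pairs, with replicate means of 2.86, 1.09 and 0.16. The edgeR log2 change was 1.54 (SE 0.41, adjusted p = 0.0413). Without replicate 1 it was 0.43 (adjusted p = 0.528), and with the replicate number as a block the adjusted p was 0.0794.

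The bin of clec-237, a pseudogene in the largest cluster, lies on the right arm of V at chrV:16930001-16940000 and also holds the F-box gene fbxa-148. Dam-EMR gave 24.6, 35.4 and 28.9 CPM in Y59C cec-4, 61.5, 82.3 and 85.8 in Y59C, 1.57, 30.6 and 59.7 in GFP::LMN-1 cec-4, and 60.1, 146 and 117 in GFP::LMN-1. GFP-Dam ranged from 8.32 to 25.9 with a median of 22.2. In 11 of 12 pairs the centred ratio was above 0, the exception being replicate 1 of GFP::LMN-1 cec-4, with 1 Dam-EMR read. Replicate means were 0.09, 2.99 and 1.40. The edgeR log2 change was 1.47 (SE 0.42, adjusted p = 0.0496), and the replicate block gave an adjusted p of 0.0636.

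The bin of clec-259, also a pseudogene, lies further out on the right arm of V at chrV:19790001-19800000. Dam-EMR gave 313, 9.84 and 27.3 CPM in Y59C cec-4, 112, 130 and 85.8 in Y59C, 132, 41.8 and 59.7 in GFP::LMN-1 cec-4, and 22.0, 25.6 and 59.7 in GFP::LMN-1. GFP-Dam ranged from 14.3 to 51.3 with a median of 23.3. The ratio was above 0 in 10 of 12 pairs, and its replicate means of 1.83, 1.30 and 0.94 were the most even of the 3 called bins. The edgeR log2 change was 1.60 (SE 0.41, adjusted p = 0.0358), and it was the one higher call that the replicate block kept (adjusted p = 0.0374).

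These calls lay close to the threshold. All 3 lost it without replicate 2 or without replicate 3 (log2 changes of 1.13 to 1.98), without the pair of Y59C replicate 3 (1.39 to 1.55), and with limma on the ratios (1.35 to 1.48). Limma called no clec bin in any comparison. DESeq2 called 23 clec bins higher and 1 lower of 179 (12.8% and 0.559%), where it called 5.31% of all bins higher and 3.88% lower. The replicate block left 1 higher and 1 lower, with 0.77% and 1.89% of all bins called. A block for each fusion apart called 5 higher and 3 lower, with 1.59% and 5.65% of all bins. The bin called lower in all of DESeq2 and both blocks was that of clec-216 and clec-217.

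That bin, on chrV:7950001-7960000 in the middle of V, had the lowest mean ratio of the bins with 10 or more reads in every GFP-Dam library. Dam-EMR had no read in 7 of 12 libraries, and 11, 1, 48, 1 and 16 reads in the others. GFP-Dam had 22 to 159 reads. The ratio averaged −1.67 ± 1.78 and was above 0 in 2 of 12 pairs. The edgeR log2 change was −3.35 (SE 0.96, adjusted p = 0.0519), just short of the threshold, and −3.85 (adjusted p = 0.037) with the replicate block. It also holds pals-34, of a gene family linked in worms to responses to intracellular pathogens.

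**Figure D2:**
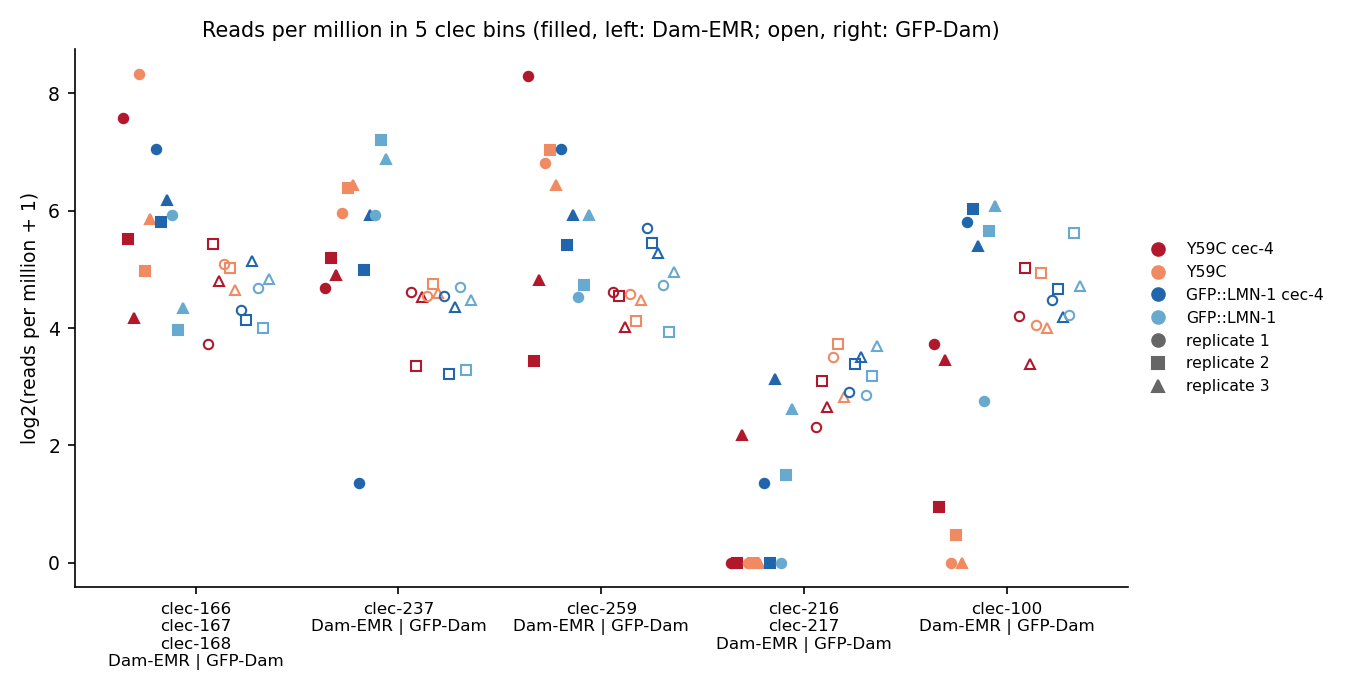
Level of 5 clec bins as log2 of CPM + 1 (vertical axis; CPM is reads scaled to the library total), 12 Dam-EMR libraries as filled points on the left and 12 GFP-Dam libraries as open points on the right of each bin, coloured by strain and shaped by replicate. Dam-EMR points of the first 3 reach above the GFP-Dam points in most pairs but spread more widely, and 7 of the Dam-EMR points of clec-216 and clec-217 lie at 0.

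The other bins at the ends of the order were not called. After the called bins, the highest mean ratios were those of clec-266 on X (1.42 ± 2.85, 9 of 12 pairs), clec-62, clec-63 and clec-64 on II (1.35 ± 2.37, 10 of 12), clec-242 and clec-243 on V (1.32 ± 2.07, 10 of 12), clec-187 on IV (1.20 ± 1.58, 10 of 12) and clec-9 on V (1.08 ± 1.31, 9 of 12). The lowest were those of clec-202 on IV (−1.25 ± 2.59, 4 of 12), clec-58 and clec-59 on II (−1.19 ± 1.84, 3 of 12), clec-226 (−1.15 ± 2.19, 3 of 12), clec-240 and clec-241 (−1.13 ± 3.28, 6 of 12), clec-1 (−1.10 ± 1.87, 4 of 12) on V, clec-146 on II (−1.06 ± 1.58, 4 of 12) and clec-224 on V (−0.95 ± 1.38, 3 of 12). The SD over pairs exceeded the mean in each of these. The bin of clec-180 on IV, which also holds the cec-4 gene, had 0.06 ± 1.00, above 0 in 6 of 12 pairs.

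Within single strains, 1 clec bin was called. The bin of clec-100, at chrI:11230001-11240000, was lower in Y59C, where 0.894% of all bins were called lower and 0.0616% higher. Its Dam-EMR reads were 0, 1 and 0 in Y59C, against 238, 177 and 166 GFP-Dam reads. The other strains had 2, 4 and 31 Dam-EMR reads in Y59C cec-4, 35, 201 and 255 in GFP::LMN-1 cec-4, and 5, 27 and 208 in GFP::LMN-1. Pooled over the 3 Y59C pairs, the log2 ratio was −5.83 (95% exact Poisson interval of the 1 read, −11.1 to −3.35, counting error only; edgeR adjusted p = 0.0472). The call was kept with DESeq2 (adjusted p = 0.00642), without the filter (0.0439) and without Y59C replicate 3 (0.0435). It was lost with the replicate block (0.0564), with RLE factors (0.074), with library totals (0.0606) and when replicate 1 (0.15), 2 (0.144) or 3 (0.208) was left out in all strains, and with limma (−2.45, adjusted p = 0.446). Apart from limma and the fit without replicate 2, which leaves no Dam-EMR read in Y59C and so gives no fold, the log2 change was −5.60 to −5.99 where the call was lost. No clec bin was called in Y59C cec-4, GFP::LMN-1 cec-4 or GFP::LMN-1, where 0% of all bins were called. At an unadjusted p under 0.05 edgeR had 7 higher (3.91%, against 4.7% of all bins) and 3 lower clec bins (1.68%, against 5.57%) in Y59C cec-4. It had 17 higher (9.5%, against 6.36%) and 25 lower (14%, against 13.6%) in Y59C. In GFP::LMN-1 cec-4 it had 8 higher (4.47%, against 2.61%) and 3 lower (1.68%, against 1.75%), and in GFP::LMN-1 it had 3 higher (1.68%, against 1.25%) and 1 lower (0.559%, against 1.82%). DESeq2 called 18 clec bins in Y59C, 13 higher and 5 lower, 3 higher in Y59C cec-4 and 0 in the other strains. Its share over all bins was counted only for the averaged association, so these counts cannot be set against the genome.

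Taken as clusters, the family formed 27 groups of 3 to 20 genes, 24 on arms and 3 in centres. Reads were summed over the clec bins of a cluster, and the log2 ratio was centred on windows of as many neighbouring bins. The mean over pairs was above 0 in 19 clusters (70.4%), where 42.9% of all windows of 3 bins were, and below 0 in 8. The share was 40.6% for windows of 2 bins and 46.5% for windows of 6. These windows cover arms, centres and X, whereas most clusters lie on arms, where all bins stood higher (0.13, against −0.14 in centres). Windows on arms alone were not counted, so position and clec clusters are not told apart. The same holds for the window shares given below. The median cluster was at 0.25. In 25 of the 27 the mean lay within 1 SD of 0, the other 2 being the clusters of 20 and 14 genes described next, and 23 clusters held member bins on both sides of 0, so the sign of a cluster is not that of its bins.

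The largest cluster runs from clec-40 to clec-241 on the right arm of V (chrV:16840001-17020000, 20 genes in 6 bins). It had 2.05, 0.004 and 0.16 in Y59C cec-4, 0.84, 0.19 and 1.35 in Y59C, 0.19, 0.16 and 1.07 in GFP::LMN-1 cec-4, and 1.06, 1.41 and 0.98 in GFP::LMN-1. All 12 pairs were above 0, by as little as 0.004, with a mean of 0.79 ± 0.65, and 0.422% of all windows of 6 bins were positive in all pairs. Over all 18 bins of its span, a version chosen after seeing the data, it had 0.76 ± 0.72 and was positive in 9 of 12 pairs. Its member bins ran from −1.13 for clec-240 and clec-241 to 1.49 for clec-237. The cluster of 14 genes from clec-67 to clec-78 on the left arm of IV (chrIV:3920001-4010000) had 0.65 ± 0.63 and was positive in 10 of 12 pairs, and in 9 of 12 over its span (0.64 ± 0.68). This cluster holds clec-67, clec-70 and clec-71, whose expression is known to answer bacteria.

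The highest cluster was that of clec-49, clec-50, clec-258 and clec-259 on V, at 1.04 ± 1.41 (9 of 12 pairs). The lowest was that of clec-192 to clec-194 on the right arm of IV, at −0.87 ± 2.65 (5 of 12), which rests on 0 to 63 Dam-EMR reads a library. Over its span of 4 bins it had 0.61 ± 1.77 and was positive in 10 of 12 pairs. Besides the 2 largest, the clusters of clec-206 to clec-208 (0.36 ± 0.73) and of clec-57 to clec-55 (0.55 ± 0.84), both on V, were positive in 10 of 12 pairs. This made 14.8% of clusters in all, against 5.87% of windows of 3 bins over arms, centres and X. Over the span, that of clec-206 to clec-208 was positive in 8 of 12 pairs (0.20 ± 0.39). With spans in place of clec bins 22 of 27 clusters had a mean above 0, 5 were positive in 10 or more pairs, none in all 12, and 3 turned sign.

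**Figure D3:**
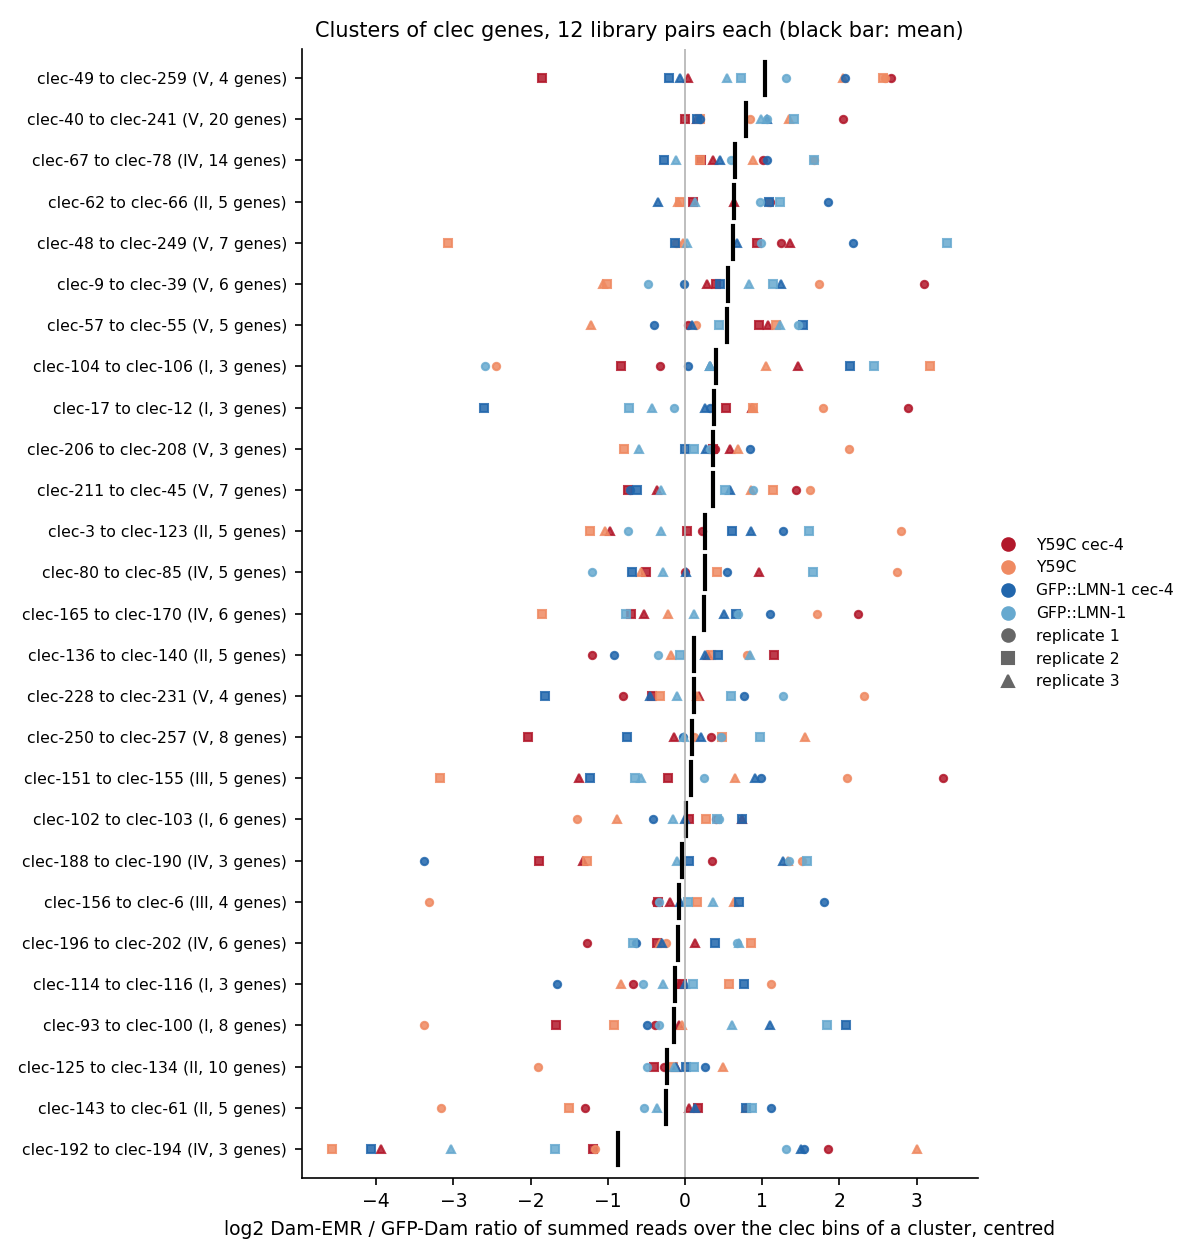
Log2 ratio of Dam-EMR over GFP-Dam of the summed reads of each of 27 clec clusters (horizontal axis, centred on windows of as many bins), with 12 pairs as points and the mean as a black bar, ordered by the mean. The 20-gene cluster of V has all 12 points above 0, and every other cluster has points on both sides.

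The cluster of 8 genes from clec-250 to clec-257 on V shows how much the bin chosen matters. Its 3 clec bins had mean ratios of 0.35 ± 2.57 (clec-250, clec-251 and clec-252), 0.28 ± 1.98 (clec-253 and clec-254) and −0.33 ± 1.07 (clec-255, clec-256 and clec-257). Summed over these bins the cluster had 0.10 ± 0.89, but over its whole span it had 2.61 ± 2.98. The excess sat in the bin between clec-254 and clec-255 (chrV:18760001-18770000), which holds the protein-coding genes F11D11.4 and F11D11.22, some pseudogenes and a non-coding RNA, and no clec gene. Dam-EMR there gave 19600, 13900, 8760 and 3640 CPM in replicate 1 of Y59C cec-4, Y59C, GFP::LMN-1 cec-4 and GFP::LMN-1. In replicate 2 it gave 8.43, 14.3, 2.57 and 25.6, and in replicate 3 it gave 1120, 544, 588 and 1020. GFP-Dam gave 3.73 to 184. Replicate 1 was the highest and replicate 2 the lowest in all 4 strains.

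That bin had a mean ratio of 3.45 ± 3.37 (11 of 12 pairs), with replicate means of 7.73, 0.49 and 2.14, and an edgeR log2 change of 5.53 (SE 1.09, adjusted p = 0.00962), the third highest of all bins. It held 97.6% of the Dam-EMR reads of its 100 kb window in replicate 1, 4.38% in replicate 2 and 78.4% in replicate 3, against 20.2%, 4.75% and 45.1% of the GFP-Dam reads. In replicates 1 and 3 most Dam-EMR reads of the window therefore came from 1 bin of 10 kb without a clec gene.

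**Figure D4:**
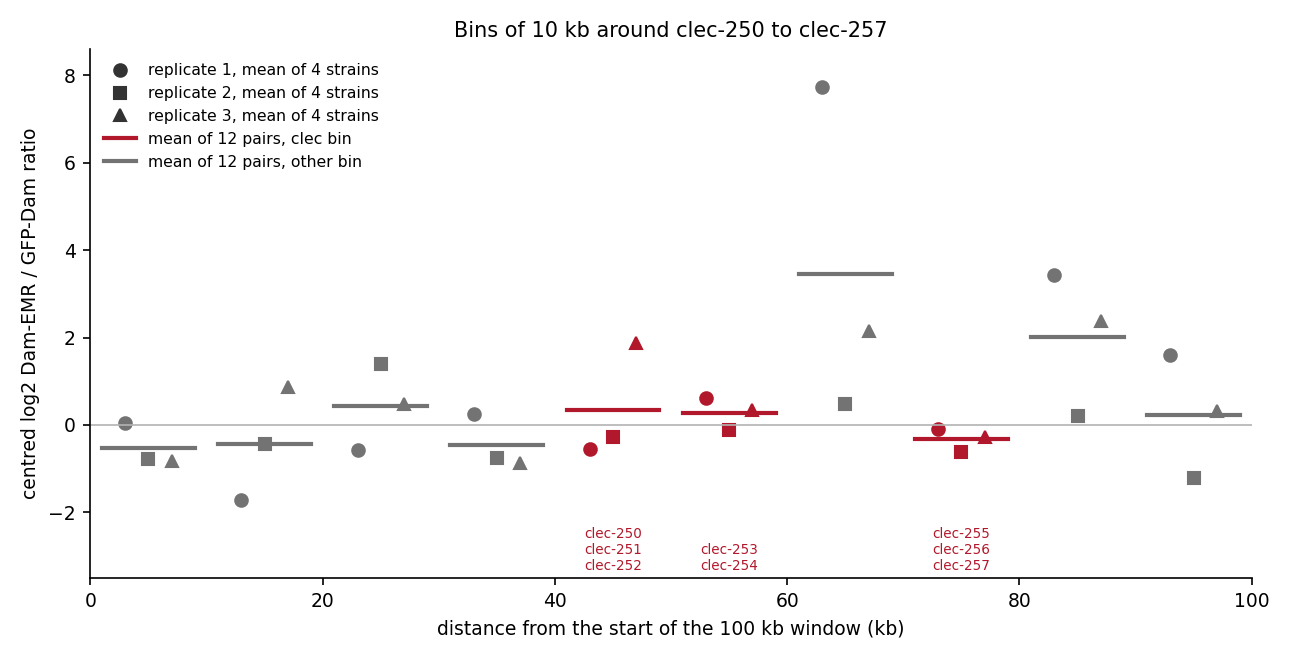
Centred log2 ratio of Dam-EMR over GFP-Dam (vertical axis) in the 10 bins of the 100 kb window around clec-250 to clec-257, by distance from its start in kb, with the mean of 12 pairs as a line and the mean of 4 strains in each replicate as points, clec bins in red. The clec bins lie near 0 (−0.33 to 0.35), the bin beside them reaches 3.45, and the bin at 80 to 90 kb (2.01) holds at most 24 Dam-EMR reads in a replicate, so that its value rests on the added read.

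Strain comparisons set the emerin ratio of one strain over that of another in the same edgeR fit, and share libraries between them. No clec bin was called in any of the 5. On simulated counts the fit of Y59C against GFP::LMN-1 recovered 0% of 4-fold and 30% of 16-fold gains in Y59C, over bins of the whole genome. Losses were not simulated. The lack of calls therefore does not show a lack of change. Y59C against GFP::LMN-1 had 5 higher and 16 lower clec bins at an unadjusted p under 0.05, which is 2.79% and 8.94% of clec bins, against 2.15% and 8.69% of all bins by the same rule. By the adjusted p, 0% and 0.0205% of all bins were called. Y59C cec-4 against Y59C had 15 higher (8.38%, against 9.47% of all bins) and 3 lower (1.68%, against 4.09%). GFP::LMN-1 cec-4 against GFP::LMN-1 and Y59C cec-4 against GFP::LMN-1 each had 1 higher and 2 lower clec bins (0.559% and 1.12%), against 1.79% and 0.74% of all bins in the first and 1.77% and 2.82% in the second. The effect of cec-4 in Y59C minus that in GFP::LMN-1 had 10 higher (5.59%, against 5.84%) and 4 lower (2.23%, against 3.1%). The clec shares were thus near or below those of all bins in most of these. The last 4 comparisons had 0% of all bins called, limma called no clec bin, and DESeq2 called 1 clec bin lower in Y59C against GFP::LMN-1, 2 higher in Y59C cec-4 against Y59C and 0 in the others. For these DESeq2 counts too, the share over all bins was not counted.

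The median log2 change over clec bins was −0.04 for Y59C against GFP::LMN-1 (all bins −0.26), 0.16 for Y59C cec-4 against Y59C (all bins 0.26), 0.12 for GFP::LMN-1 cec-4 against GFP::LMN-1 (all bins −0.01), 0.09 for Y59C cec-4 against GFP::LMN-1 (all bins −0.04) and 0.03 for the difference of the cec-4 effects (all bins 0.34). These medians are descriptions and were not tested.

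The bins with the largest changes show what lies behind the counts. Reads are given here and below without scaling to depth. Dam-EMR totals were 536964, 2587500 and 34946 in Y59C, and 865264, 546917 and 3117122 in GFP::LMN-1. Of all clec bins 21.9%, 25.1% and 44.8% were empty in the Y59C libraries, and 13.7%, 3.28% and 4.92% in those of GFP::LMN-1. In Y59C against GFP::LMN-1 the 3 most negative bins had no Dam-EMR read in any Y59C library, so no fold is given. The bin of clec-60 and clec-61 had 0, 0 and 0 Dam-EMR reads in Y59C, against 0, 34 and 59 in GFP::LMN-1. The bin of clec-189 and clec-190 had 0, 0 and 0 reads in Y59C, against 3, 45 and 29. The bin of clec-197 and clec-198 had 0, 0 and 0 in Y59C, against 8, 3 and 114. The most positive were clec-258 (log2 change 3.76, SE 1.80), clec-20 (3.74, SE 1.70) and clec-112 (3.56, SE 1.68). In clec-258 Y59C had 80, 22 and 0 Dam-EMR reads, against 9, 3 and 2 in GFP::LMN-1. The smallest adjusted p over all clec bins in this comparison was 0.167.

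In Y59C cec-4 against Y59C the most positive bins were again those at 0 in Y59C. The bin of clec-247 had 1, 12 and 50 Dam-EMR reads in Y59C cec-4, against 0, 0 and 0 in Y59C. The bin of clec-211 and clec-212 had 11, 6 and 32, against 0, 0 and 0, and that of clec-197 and clec-198 had 1, 80 and 5, against 0, 0 and 0. The most negative were clec-49 and clec-50 (log2 change −4.83, SE 2.28), clec-171 (−4.61, SE 2.32) and clec-109 (−3.38, SE 1.99). In the bin of clec-49 and clec-50 there were 0, 0 and 7 reads in Y59C cec-4, against 16, 0 and 3 in Y59C.

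In GFP::LMN-1 cec-4 against GFP::LMN-1 the extremes were clec-226 (3.60, SE 1.86), clec-2 (3.36, SE 1.87) and clec-244 (3.30, SE 1.75) on the positive side. On the negative side were clec-19 (−3.05, SE 1.85), the bin of clec-250 to clec-252 (−3.04, SE 1.81) and clec-261, with 0, 0 and 1 Dam-EMR reads in GFP::LMN-1 cec-4, against 0, 32 and 0 in GFP::LMN-1. In Y59C cec-4 against GFP::LMN-1 they were clec-236 (4.08, SE 2.18), clec-195 (3.17, SE 1.78) and clec-244 (3.08, SE 1.75), and clec-49 and clec-50 (−5.42, SE 2.19), clec-60 and clec-61 (−3.87, SE 2.01) and clec-171 (−3.83, SE 2.29). For the difference of the cec-4 effects they were clec-261, clec-197 and clec-198, and clec-202, each with a strain at 0 reads, and clec-171 (−6.27, SE 3.05), clec-258 (−5.27, SE 2.53) and clec-2 (−5.16, SE 2.72). Adjusted p was 0.182 or more for all the extremes named.

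A list of clec genes with a known response to microbes or another known role held 23 genes, in 20 bins. None of the 19 bins tested was called by edgeR, with a median log2 change of 0.26, against −0.07 over all bins. Their median centred ratio was 0.30 ± 0.51, above 0 in 10 of 12 pairs. The bin of clec-63 came closest, at a log2 change of 2.23 (SE 0.66, adjusted p = 0.0576). The bin of clec-83 had 0.87 (SE 0.45), clec-186 had 0.74 (SE 0.38), clec-4 had 1.49 (SE 0.65) and clec-67 had 0.42 (SE 0.44). The bin of clec-41 had −0.77 (SE 0.35) with a ratio above 0 in 2 of 12 pairs, and clec-42 had −0.61 (SE 0.37, 3 of 12). The bin of clec-60, a gene of the response to Staphylococcus aureus, had −1.25 (SE 1.15). These bins run in both directions and none passed edgeR's test. DESeq2 called 2 of them higher, that of clec-63 (2.52, adjusted p = 0.00334) and that of clec-4 (1.85, adjusted p = 0.0477).

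Other innate immunity genes, 96 in 75 bins, had a median ratio of 0.10 ± 0.13. They comprise lysozymes, saposin-like proteins, antimicrobial peptides, infection response genes, galectins and signalling genes. In the averaged association 1 of the 75 bins was higher and 1 lower, where 1.29% and 1.8% of all bins were. The higher one holds nlp-26, a neuropeptide-like gene of the antimicrobial nlp group on V, at 2.70 (SE 0.48, adjusted p = 0.00575, 12 of 12 pairs). The lower one holds the caenacin gene cnc-7, at −2.22 (SE 0.60, adjusted p = 0.0413, 4 of 12 pairs above 0).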

How the data were processed

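DamID reads of 24 libraries were analysed from the table of mapped read counts per 10 kb bin of ce11, which the authors deposited as raw counts. The build is named in the submitters' processing notes. How the reads were aligned and filtered is not stated in the labels or headers used here. Gene positions came from the RefSeq table of the same assembly, in which all clec symbols were matched. The mitochondrial bins, 2 bins with the value 1 in all libraries and 55 bins without a read were left out. No genome or sequence was used here, so GATC sites per bin were not counted.

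The clec bins, gene lists and classes were chosen with earlier results of these data known. Named bins were the called ones, the 8 highest and 8 lowest with 10 or more reads in every GFP-Dam library, the 3 largest changes in each direction of each strain comparison, and every cluster. Of the clec genes listed for a microbe response or another known role 8 were given values, and other immunity genes were named where called.

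In R 4.3.3, edgeR 4.0.16 fitted the 9735 bins that filterByExpr kept, as 8 groups of 3 scaled by TMM, with Benjamini-Hochberg adjustment over all of them, with DESeq2 1.42.0 and limma 3.58.1 beside it. Of the clec bins, 5 were not tested: those of clec-13 to clec-16, clec-150, clec-209, clec-47 and clec-249. The ratio of the clec-47 bin (mean 2.47) rests on 0 to 4 GFP-Dam reads and was not interpreted. The fit was tested on counts simulated with the fitted spread, each library drawn independently, with Dam-EMR raised in 50 bins at each fold. Losses were not simulated, and the bins were taken from all tested bins and not from clec bins. The averaged association recovered 12% of 2-fold changes, 70% of 4-fold and 100% of 8-fold changes, with 12 false calls among 9663 bins. Y59C against GFP::LMN-1 recovered 0% at 2-fold and 4-fold, 6% at 8-fold and 30% at 16-fold, with 1 false call among 9651 bins. PCR reads are not independent molecules, so intervals cover counting error only.

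Each replicate was a round in which the strains were raised side by side, per the series' design text, so the replicate numbers pair the libraries. Deviations from group means correlated within a replicate number at a median r of 0.503 (lowest 0.263) for GFP-Dam over 9973 bins. For Dam-EMR the median was 0.0941 (lowest −0.186). Between numbers the medians were −0.28 and −0.0509. Deviations cancel within a group, which pushes r between numbers below that within them, so this contrast is no evidence of pairing. Correlation between the Dam-EMR and GFP-Dam libraries of a pair was not looked at. Bins are not independent replicates. Alternatives were RLE factors, library totals, no filter, other tools, blocks, left-out replicates, other pseudocounts and centring, other windows and, chosen after seeing the data, arms alone, cluster spans and 1 pair left out on the left arm of IV.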

Additional observations from a re-analysis of the deposited data

Results flagged for a closer look

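With the strains compared 2 at a time over 50 values (7 group medians, 16 named bins and 27 clusters), 5 of 300 comparisons (1.67%) had all 3 pairs of one strain above 0 and all 3 of the other below. The differences were not tested, and the share that random signs would give was not worked out. They are therefore not read as effects of a strain. The clustered minus single difference averaged −0.19 in Y59C cec-4 and 0.58 in GFP::LMN-1. The cluster of clec-17, clec-11 and clec-12 on the right arm of I averaged 1.43 in Y59C cec-4 and −0.43 in GFP::LMN-1, and 1.18 in Y59C and −0.43 in GFP::LMN-1. The cluster of 7 genes from clec-48 to clec-249 on the right arm of V averaged 1.18 in Y59C cec-4 and −1.07 in Y59C, and −1.07 in Y59C and 1.47 in GFP::LMN-1. In its Y59C pairs the values were −0.12, −3.07 and −0.03, so that replicate 2 carries the mean. Groups of 3 pairs are too small for a test of single outlying pairs.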

How the results depend on the processing

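The 53 alternative values of the clec, clustered and single medians and of their difference moved by less than 1 SD between pairs: 0.071 to 0.364 for clec bins, 0.091 to 0.394 for clustered, −0.031 to 0.259 for single, and 0.004 to 0.424 for clustered minus single. Each main value was smaller than its SD, so a fall to 0 would also have passed this rule. Centring cannot change the clustered minus single difference. Calls were less steady. The averaged association called 3 clec bins, against 24 with DESeq2, 0 with limma, 8 with a replicate block per fusion, and 0 to 4 when a replicate or the shallow Y59C replicate 3 was left out. In Y59C the 1 lower call became 18 with DESeq2, 13 higher and 5 lower. It became 0 with limma, RLE factors, library totals and both forms of the replicate block, and 0 to 2 when replicates were left out. DESeq2 called 3 clec bins in Y59C cec-4, 1 in Y59C against GFP::LMN-1 and 2 in Y59C cec-4 against Y59C, where leaving out replicates gave 0 to 1. Within and between strains the DESeq2 share over all bins was not counted. The causes were not tested. Of 110 alternative counts 90 stayed within 1.5 times the reported count, most of them counts of 0 that stayed 0. That rule takes no account of direction. The plain replicate block left 2 calls in the averaged association, 1 higher and 1 lower, against 3 higher and 0 lower in the main fit. Using the bin of a gene's 5′ end was not run, since the gene table used here gives no strand. Dam-EMR depth limits single bins: the median clec bin held as little as 1 read.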
